A study of Mus musculus with 4 samples.

Results

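The genes that drive cells through G2 and mitosis were followed in mouse fibroblasts after a pulse of hydrogen peroxide. These genes were chosen by name, with earlier results of these data known, for roles in mitotic entry, the spindle, the kinetochore, chromosome structure and cytokinesis. The list held 48 genes, out of 30175 gene names on the array. All 48 were on it, with 68 probes of 39429, and each gene was represented by its brightest probe. RNA came from NIH-3T3:Per2-Luc, NIH-3T3 mouse fibroblasts that carry a luciferase driven by the promoter of the clock gene *Per2*, grown to confluence before treatment. In 3 conditions the cells received a cOS-pulse (cOS, critical oxidative stress; 5 mM H2O2 for 10 min) and RNA was taken 4 h, 20 h or 32 h later, and the control received 0 mM H2O2 with fresh medium and is labeled 4 h. All conditions were given fresh medium, and each was measured on 1 array, with all 4 arrays on 1 slide. Since the control was not sampled at 20 h or 32 h, the pulse and the time since the medium change cannot be told apart at these hours. With 1 array per condition the differences had no replicate check, so values are given without a test.

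Entry into mitosis is driven by cyclin-dependent kinase 1 bound to A- and B-type cyclins, and the Cdc25 phosphatases remove the phosphates by which *Wee1* and *Pkmyt1* hold this kinase inactive. Polo-like and Aurora kinases then act on centrosomes, kinetochores and the spindle, the spindle assembly checkpoint holds the cell until all chromosomes are attached, and the anaphase-promoting complex (APC/C) with *Cdc20* marks cyclin B for destruction. Transcripts of these proteins rise together in G2 in dividing cells and are kept low in resting cells, so in bulk RNA a lower level can come from fewer cells in G2 and M or from less of the transcript in each cell, and fewer cells of a type and less RNA per cell cannot be told apart here.

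Levels are log2 intensities relative to the 75th percentile of each array, so that 0 is the signal below which 75% of probes lie. A difference of levels is a log2 ratio, a difference of 1 is 2-fold, and "fell" and "rose" are used for changes of at least 2-fold. A ratio was measured where the probe was well above background on both arrays. Where only 1 array was, a bound was taken if its signal exceeded the value the bound is set against, and otherwise no ratio was given. Among the 48 genes, 43 were well above background on all 4 arrays, and the number per array was 46 in the control, 43 at 4 h, 47 at 20 h and 45 at 32 h. *Cenpf*, a kinetochore protein, was above background on none, and *Aurkb* at 20 h only. The error given with a ratio is that of the spots as estimated by the scanner software, which was about 10% per spot and below 0.25 on the log2 scale for 39 of the 43 ratios measured at 4 h. It does not cover differences between cultures. Between 52.7% and 59.1% of all probes were well above background on each array, highest at 4 h. Of 16 fibroblast markers, 15 were well above background in the control, the exception being *Postn*. Of 18 markers of other cell types, between 8 and 11 were above background on an array, and 7 (*Epcam*, *Cdh1*, *Ptprc*, *Emr1*, *Myod1*, *Myog* and *Des*) on none. The summed linear signal of these 18, relative to the 75th percentile, was 5.49 in the control, 8.79 at 4 h, 6.79 at 20 h and 6.68 at 32 h, and the part of this in the results was not tested.

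At 4 h after the pulse, nearly the whole group was lower than in the control. Of the 46 genes with a ratio, 37 fell, 0 rose, 8 were measured within 2-fold, and *Ttk* had only a bound, so that a 2-fold fall was not shown for it. Of the 46, 45 were below the control, against 6718 of 18506 gene names. The median log2 ratio was -1.58, a level 2.98-fold lower, against 0.22 over all 18506 gene names with a ratio. Over the array 8.26% of gene names fell and 11.1% rose. Scaled by the spike-in controls, 43 genes of the group fell and 0 rose, with 16.6% of gene names lower and 5.84% higher, so that the size of the fall depends on the scaling and its direction does not. The distance between the group's median and that of all measured gene names was -1.75 under the 75th percentile. The array median, the spike-in controls and no scaling each shift an array by 1 constant, so the distance could not differ under them. Quantile normalization can change it, and gave -1.63.

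**Figure D1:**
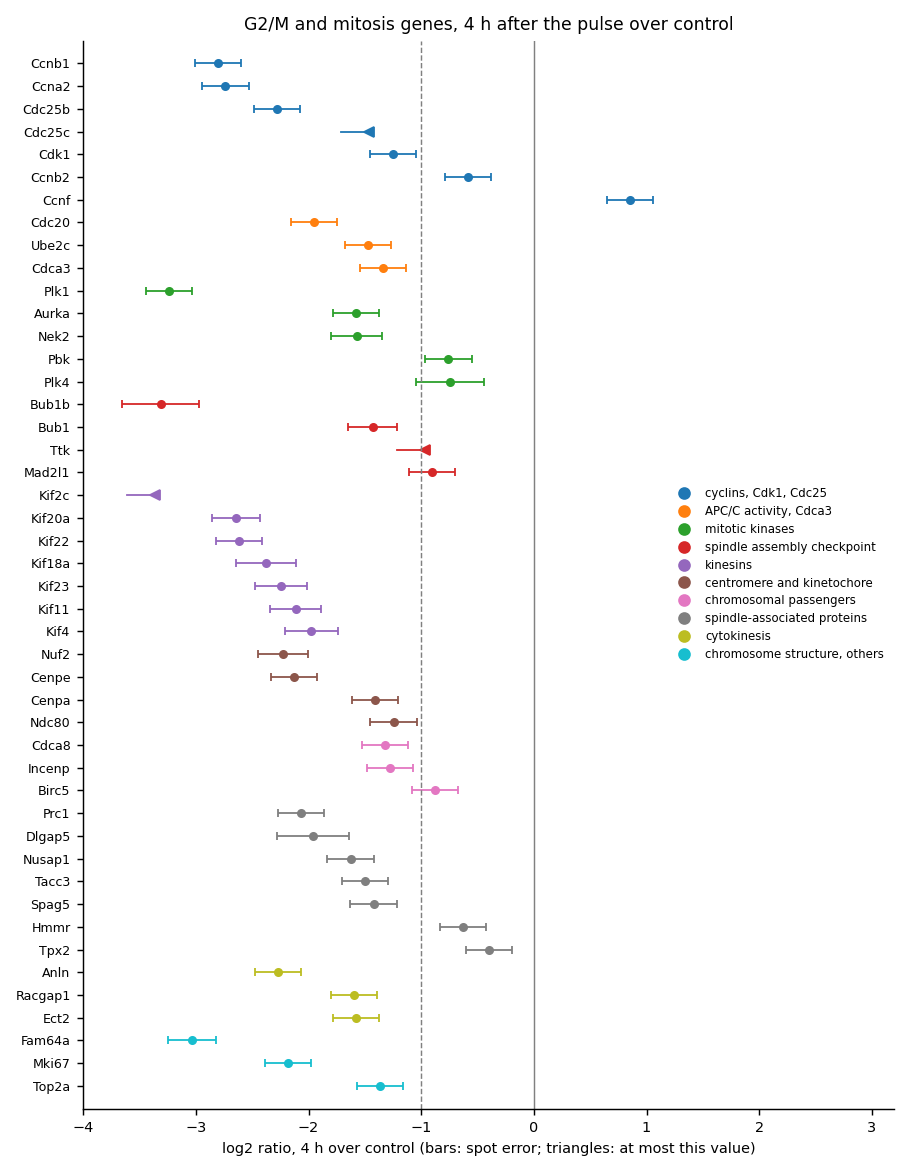
Log2 ratio of 4 h over control for the 46 genes with a ratio, ordered by role, with 1 array per condition. Bars show the spot error, and triangles mark genes not above background at 4 h. Their ratio is at most the value drawn, except that *Kif2c* is drawn at its own dim signal. The dashed line is 2-fold lower, and *Ccnf* (0.85) is the 1 point to the right of 0.

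Cyclins and the kinase they activate did not move alike. Cyclin B1 (*Ccnb1*), the B-type cyclin that triggers mitotic entry, had a log2 level of 1.12 in the control, -1.68 at 4 h, 1.05 at 20 h and 0.67 at 32 h. At 4 h it was 6.99-fold lower than in the control, and its log2 ratio was -2.80 ± 0.21 (spot error). Its probe lies at chr13:101548722-101548781 (mm9). Cyclin A2 (*Ccna2*), which acts in S phase and G2, gave 1.81 in the control, -0.93 at 4 h, 1.55 at 20 h and 1.10 at 32 h. For both cyclins the 4 h array alone stood far from the other 3. Cyclin B2 (*Ccnb2*) changed much less, from 0.58 in the control to -0.01 at 4 h, 0.52 at 20 h and 0.36 at 32 h, and stayed within 2-fold with a ratio of -0.58 ± 0.20. Cyclin F (*Ccnf*), the F-box protein of an SCF ubiquitin ligase that is active in G2, was the only gene of the group above the control at 4 h. It had 1.05 in the control, 1.90 at 4 h, 1.14 at 20 h and 0.72 at 32 h, which put it 1.81-fold higher at 4 h (log2 ratio 0.85 ± 0.20). Its level at 4 h was the highest of its 4 arrays, the reverse of the order seen for the other cyclins. *Ccnf* was above the control under each of the 6 other scalings too, with values down to 0.45, and it was measured by 1 probe, at chr17:24360204-24360263 (mm9).

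*Cdk1*, the catalytic partner of these cyclins, fell less than cyclin B1 or A2. It had 1.5 in the control, 0.24 at 4 h, 1.27 at 20 h and 1.07 at 32 h, a fall of 2.38-fold at 4 h (log2 ratio -1.25 ± 0.20). Among the phosphatases that activate it, *Cdc25b* fell 4.86-fold, with a log2 ratio of -2.28. *Cdc25c* had -3.48 in the control, was not well above background at 4 h, and returned to -3.66 at 20 h and -4.12 at 32 h, so that it was at least 2.75-fold lower at 4 h, or at least 1.58-fold with normexp, a model-based background correction of the raw spot signals. In this role 5 of 7 genes fell and the median ratio was -1.46.

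Transcripts of APC/C activity, grouped with the SCF-linked *Cdca3*, fell as well. *Cdc20*, the activator that lets the complex recognize cyclin B and securin, had 2.90 in the control, 0.95 at 4 h, 2.74 at 20 h and 2.41 at 32 h, a fall of 3.86-fold at 4 h. *Ube2c*, the ubiquitin-conjugating enzyme of the APC/C, fell with a log2 ratio of -1.47 and *Cdca3* (Tome-1), a protein linked to the destruction of *Wee1*, with -1.34. *Cdca3* had 0.51 in the control, -0.82 at 4 h, 0.83 at 20 h and 0.47 at 32 h, so that its 20 h level was above the control by 0.32, more than its spot error of 0.20. The subunits and other regulators of the APC/C, 16 genes outside the group, were mostly unlike their activator. Of the 15 with a ratio 1 fell and 0 rose, with a median of -0.07, and the gene that fell was *Fbxo5*, an inhibitor of the complex, with -1.55.

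The mitotic kinases differed widely among themselves. Polo-like kinase 1 (*Plk1*), needed for centrosome maturation, spindle assembly and cytokinesis, had 2.22 in the control, -1.01 at 4 h, 2.22 at 20 h and 1.72 at 32 h. This was a fall of 9.44-fold at 4 h with a log2 ratio of -3.24 ± 0.21, and at 20 h the level differed from the control by -0.01. Its probe lies at chr7:129313220-129313279 (mm9). Polo-like kinase 4 (*Plk4*), which starts centriole duplication, was dim and stayed within 2-fold, with -3.58 in the control, -4.32 at 4 h, -3.96 at 20 h and -4.47 at 32 h and a 4 h ratio of -0.75 ± 0.30. Among the kinases of this role *Plk4* lay furthest below the control at 20 h and 32 h. Aurora A (*Aurka*), the centrosomal Aurora kinase, had 1.88 in the control, 0.31 at 4 h, 1.69 at 20 h and 1.42 at 32 h and fell 2.98-fold. *Nek2*, a centrosomal kinase, fell with -1.57, and *Pbk*, a mitotic kinase of the MAPKK type, lay within 2-fold at -0.76. Aurora B (*Aurkb*), the kinase of the chromosomal passenger complex, gave -4.80 in the control, -5.24 at 4 h, -4.83 at 20 h and -5.38 at 32 h. Only at 20 h did the scanner software call the signal well above background, although the control signal was as high, and no ratio to the control was taken.

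The partners of Aurora B in the passenger complex were well above background on every array and changed by less than the median of the whole group at 4 h. Survivin (*Birc5*) had 3.61 in the control, 2.73 at 4 h, 3.50 at 20 h and 3.12 at 32 h, a 4 h ratio of -0.88 ± 0.20 that stayed within 2-fold. Borealin (*Cdca8*), with 2.61, 1.30, 2.62 and 2.28 in the same order, fell 2.49-fold, and *Incenp*, the scaffold of the complex, fell with -1.28. The 3 genes thus spanned -1.32 to -0.88.

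In the spindle assembly checkpoint the kinase-like protein BubR1 (*Bub1b*) had the lowest measured ratio of all 43. It had -1.41 in the control, -4.72 at 4 h, -1.5 at 20 h and -1.96 at 32 h, a fall of 9.93-fold with a log2 ratio of -3.31 and a spot error of 0.34, since its 4 h signal was close to the limit of detection. *Bub1*, the related checkpoint kinase, fell 2.70-fold, from -1.10 in the control to -2.53 at 4 h, with -0.86 at 20 h and -1.39 at 32 h. *Mad2l1*, the MAD2 protein that binds *Cdc20*, had 0.96 in the control, 0.05 at 4 h, 0.96 at 20 h and 0.72 at 32 h and stayed within 2-fold, at -0.90 ± 0.20. *Ttk*, the MPS1 kinase that starts checkpoint signaling, was above background in the control and at 20 h only. It was at least 1.96-fold lower at 4 h and at least 1.69-fold lower at 32 h than in the control. With normexp its 4 h value was only 1.22-fold lower, so this bound depends on the background correction. With normexp background correction *Bub1b* moved to -1.85 (3.60-fold lower), above the -3.01 of *Plk1*, so that its place as the deepest measured fall depends on the background correction.

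Transcripts of the mitotic kinesins of the group, motor proteins of the spindle, fell without exception. All 7 fell, with a median ratio of -2.38 (5.20-fold lower). This was the lowest median of the 10 roles, but with normexp it was -1.60, above the -2.18 of chromosome structure and proliferation. *Kif2c*, the microtubule-depolymerizing motor MCAK, was not well above background at 4 h. By its own dim signal there it was 10.3-fold below its control level, or 3.80-fold with normexp background correction. The size of its fall thus depends on the background correction. *Kif20a*, a motor of the central spindle, had 0.61 in the control, -2.04 at 4 h, 0.35 at 20 h and 0.15 at 32 h, a fall of 6.25-fold. *Kif4*, a chromosome-bound motor of the midzone, changed least of the 7 and still fell 3.94-fold, from -1.49 in the control to -3.47 at 4 h, with -1.59 at 20 h and -1.90 at 32 h. Between them lay *Kif22*, a chromosome-arm motor, at -2.62, *Kif18a*, which limits chromosome movement, at -2.38, *Kif23*, the motor of centralspindlin, at -2.24, and *Kif11*, which pushes the spindle poles apart, at -2.12. *Kif18a* had -1.55 in the control, -3.93 at 4 h, -1.61 at 20 h and -2.23 at 32 h. For each of the 7, the 4 h array had the lowest level and the control or the 20 h array the highest. Among kinesins listed with other mitotic genes, *Kif14* (0.32) and *Kif24* (0.02) did not fall at 4 h. There *Kifc1* (-1.99) and *Kif20b* (-1.77) fell. *Kif18b* was 4.96-fold lower by its own dim signal at 4 h, and *Kif15* at least 2.10-fold lower.

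Centromere and kinetochore genes fell in all 4 cases with a ratio. *Nuf2*, part of the NDC80 complex that binds microtubules, had -0.99 in the control, -3.22 at 4 h, -1.25 at 20 h and -1.54 at 32 h and fell 4.68-fold. *Ndc80*, its partner in that complex, fell less, 2.37-fold, with -0.75, -1.99, -1.0 and -1.26 in the same order. *Cenpe*, the kinetochore motor, had 2.39 in the control, 0.27 at 4 h, 2.22 at 20 h and 1.81 at 32 h and fell 4.37-fold. *Cenpa*, the histone H3 variant of centromeres, had 1.52 in the control, 0.10 at 4 h, 1.04 at 20 h and 1.02 at 32 h. *Cenpa* fell 2.66-fold at 4 h and at 20 h was still 0.47 below the control, more than its spot error. It was the gene of the group with the smallest change from 20 h to 32 h.

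Among transcripts of spindle-associated proteins, 5 of 7 fell. *Prc1*, which bundles the microtubules of the midzone, fell 4.18-fold, with 2.90 in the control, 0.84 at 4 h, 2.93 at 20 h and 2.55 at 32 h. *Tpx2*, the activator of Aurora A on the spindle, changed least of the genes below the control, with 1.23, 0.83, 1.14 and 0.93 in the same order and a ratio of -0.40 ± 0.20. *Hmmr*, a spindle pole protein, also stayed within 2-fold at -0.63. *Dlgap5*, which stabilizes kinetochore fibers, fell with -1.96 (-0.85 with normexp, within 2-fold), *Nusap1*, a microtubule-bundling protein, with -1.63, *Tacc3*, which crosslinks spindle microtubules, with -1.5, and *Spag5* (astrin) with -1.42. *Nusap1* had 0.39 in the control, -1.23 at 4 h, 0.74 at 20 h and 0.34 at 32 h, the largest rise above the control at 20 h within the group, at 0.34 ± 0.20.

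In the roles of cytokinesis and of chromosome structure and proliferation, all 6 genes fell. *Anln*, the actin-binding protein anillin of the cleavage furrow, had 2.32 in the control, 0.05 at 4 h, 2.22 at 20 h and 1.86 at 32 h and fell 4.84-fold. *Ect2*, the exchange factor that activates RhoA at the furrow, had 0.18 in the control, -1.40 at 4 h, 0.43 at 20 h and -0.11 at 32 h. *Racgap1*, a part of centralspindlin, fell with -1.60. The proliferation marker Ki-67 (*Mki67*) had 3.15 in the control, 0.97 at 4 h, 3.01 at 20 h and 2.58 at 32 h, a fall of 4.54-fold. DNA topoisomerase II alpha (*Top2a*), which untangles sister chromatids, fell less, 2.57-fold, with 0.56 in the control, -0.80 at 4 h, 0.53 at 20 h and 0.02 at 32 h. *Fam64a*, which RefSeq lists as Pimreg, had 0.92 in the control, -2.12 at 4 h, 0.81 at 20 h and 0.53 at 32 h, a fall of 8.19-fold. In each of these 6 genes the 4 h level was the lowest of the 4 arrays.

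Genes with several probes allowed a check of the brightest-probe choice. Of 15 such genes, 13 had a ratio at 4 h from at least 2 probes, and in all 13 every probe lay below the control. The spread between the probes of a gene had a median of 0.25 and reached 0.88 for *Dlgap5*, where the other probe gave -1.08. The 2 probes of *Mki67* and the 2 probes of *Cdk1* with a ratio differed by 0.01 and 0.05. Between 20 h and 32 h, where the arrays were most alike, the robust SD of the log2 ratio over all measured gene names was 0.14.

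The sequence in front of these genes was examined because their levels moved together. Promoters of G2/M genes are known to carry the cell cycle genes homology region (CHR; TTTGAA or TTCGAA here), bound by the DREAM and MuvB complexes, and CCAAT boxes, bound by NF-Y. RefSeq windows (GRCm38.p6) of 300 bases, 250 before the transcript start and 50 after it, were found for 39 of the 48 genes, with 2 windows each for *Prc1* and *Ect2*. On either strand, 29 of the 39 genes (74.4%) held a CHR match, against 21.7% of 27025 genes with a window and 16.8% of the 10262 whose array signal was well above background in the control. A CCAAT match was held by 29 of 39 (74.4%), against 41.1% and 43.3%, and both by 26 of 39 (66.7%), against 9.65% and 8.25%. Of the 43 CHR matches of the group, 29 lay within 40 bases of the start, in 26 genes. These match counts hold the sites of *Prc1* and *Ect2* once for each of their 2 overlapping windows. The share of all genes with a match this near the start was not computed. The group's genes with and without a CHR match had median ratios at 4 h of -1.58 over 28 genes (from -3.36 to 0.85) and -1.60 over 10 (from -2.80 to -0.75), which were not compared by a test. A match is a description of the letters in this window and not a measured site. The 120 bases directly before the start are shown for 6 genes that fell and hold a CHR match there, for *Ccnf*, which holds one and did not fall, and for *Ccnb1*, which fell and holds none in its window. They run 5′ to 3′ on the strand of the gene, and capitals mark CHR and CCAAT matches of either strand, which did not overlap in these stretches.
Cdc20, chr4:118437344-118437463, minus strand: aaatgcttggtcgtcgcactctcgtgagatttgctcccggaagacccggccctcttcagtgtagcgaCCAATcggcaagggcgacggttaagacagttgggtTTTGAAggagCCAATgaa
Cdk1, chr10:69352913-69353032, minus strand: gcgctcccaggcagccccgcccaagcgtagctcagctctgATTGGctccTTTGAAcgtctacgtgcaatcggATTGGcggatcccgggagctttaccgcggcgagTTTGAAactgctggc
Ube2c, chr2:164769809-164769928, plus strand: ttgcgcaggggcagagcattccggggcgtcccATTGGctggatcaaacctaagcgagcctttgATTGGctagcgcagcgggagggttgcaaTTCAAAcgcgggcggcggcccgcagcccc
Kif22, chr7:127042421-127042540, minus strand: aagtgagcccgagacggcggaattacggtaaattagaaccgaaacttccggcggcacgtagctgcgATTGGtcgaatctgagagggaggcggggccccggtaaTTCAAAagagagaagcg
Top2a, chr11:99024190-99024309, minus strand: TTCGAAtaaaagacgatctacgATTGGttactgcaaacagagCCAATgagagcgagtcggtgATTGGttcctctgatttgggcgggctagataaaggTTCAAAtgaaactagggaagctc
Kif11, chr19:37376262-37376381, plus strand: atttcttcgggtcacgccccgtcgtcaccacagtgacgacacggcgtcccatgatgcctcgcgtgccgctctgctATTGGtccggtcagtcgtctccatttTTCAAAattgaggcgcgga
Ccnf, chr17:24251410-24251529, minus strand: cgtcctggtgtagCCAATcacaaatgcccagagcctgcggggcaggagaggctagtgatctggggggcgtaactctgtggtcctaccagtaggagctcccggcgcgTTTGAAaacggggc
Ccnb1, chr13:100786487-100786606, minus strand: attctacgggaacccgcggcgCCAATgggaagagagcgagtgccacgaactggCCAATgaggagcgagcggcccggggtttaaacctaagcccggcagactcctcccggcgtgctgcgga

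In *Cdk1*, *Cdc20*, *Kif22* and *Kif11* the CHR match nearest to the start began 15, 18, 17 and 19 bases before it, and in *Ccnf* 14 bases before it. Among the printed stretches, a match of either strand 14 to 19 bases before the start was thus held by 4 genes that fell and by the 1 gene that was higher. Over all windows of the group, 26 genes held a match within 40 bases of the start. Of the other mitotic genes with a window, 27 of 43 (62.8%) held a CHR match. Of the genes of DNA replication and G1/S with a window, 9 of 42 (21.4%) held one, close to the share of all genes.

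**Figure D2:**
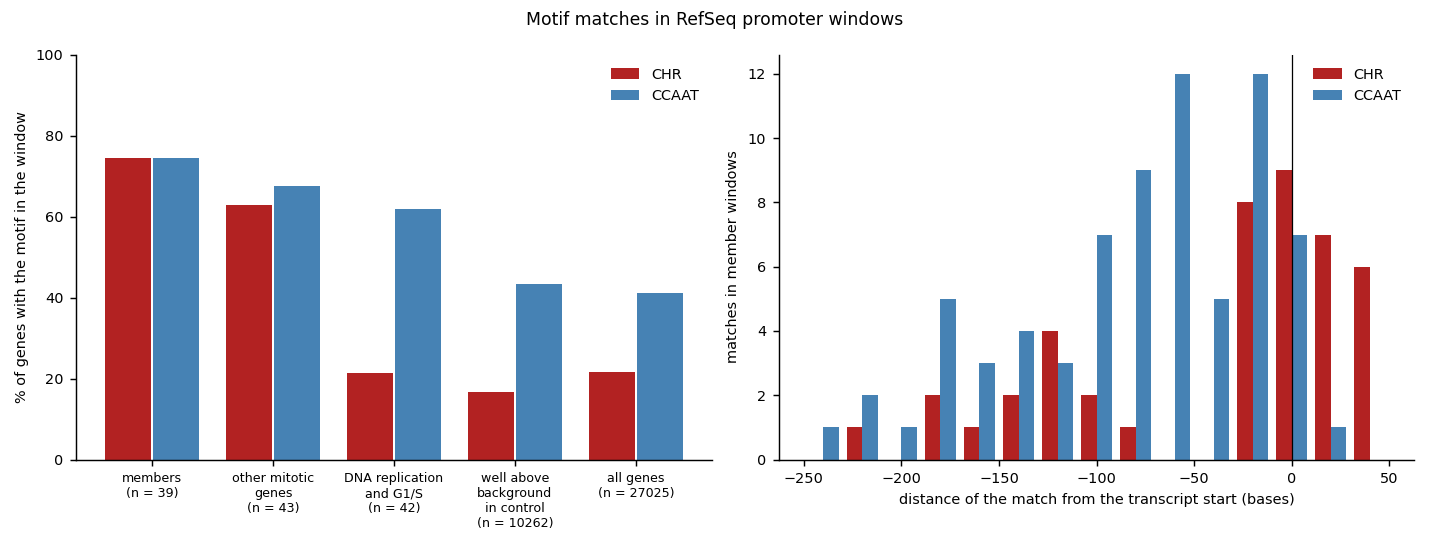
Left, percentage of genes whose RefSeq window of 300 bases holds a CHR or a CCAAT match on either strand, for 39 genes of the group, 2 other gene lists, genes above background in the control and all 27025 genes (n under each bar). Right, number of matches in the group's windows by distance from the transcript start in bins of 20 bases, with each window of *Prc1* and *Ect2* counted. CHR matches of the group gather near the start and CCAAT matches spread further upstream, and distances over all genes are not shown.

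Between 4 h and 20 h the group returned close to the control. Of 47 genes with a ratio of 20 h over 4 h, 35 rose and 0 fell, with a median of 1.66, or 3.15-fold. Over the array 9.37% of gene names rose and 15.1% fell. In the group 46 genes were higher, against 7001 of 18715 gene names. Among measured ratios *Plk1* rose most, by 3.23, followed by *Bub1b* with 3.22, and *Kif2c* rose 8.46-fold over its own dim signal at 4 h. *Ccnf* was the exception again, with a log2 ratio of -0.76.

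Compared with the control, 0 of 46 genes had fallen at 20 h and 0 had risen, where 3.56% of gene names fell and 1.46% rose. The median was -0.09, and 30 of 46 genes lay within their spot error of the control, against 56.7% of gene names. Of the rest, 12 were lower by more than the spot error, against 22.6% of gene names, and 4 were higher (*Nusap1*, *Cdca3*, *Ect2* and *Bub1*), against 20.7% of gene names. The genes furthest below were *Ttk* at -0.63, *Cenpa* at -0.47 and *Plk4* at -0.38. The group's median differed from that of all measured gene names by -0.09, and by -0.10 after quantile normalization. The other scalings shift each array by 1 constant, so they could change this distance only through which genes had a ratio. The group's own median was -0.09, and became 0.11 with the spike-in controls and 0.24 with no scaling. With the spike-in controls less the 1 probe furthest from the others, an alternative chosen after seeing the data, it was -0.01. Its sign thus turned with the scaling and, for the spike-in controls, with 1 probe.

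**Figure D3:**
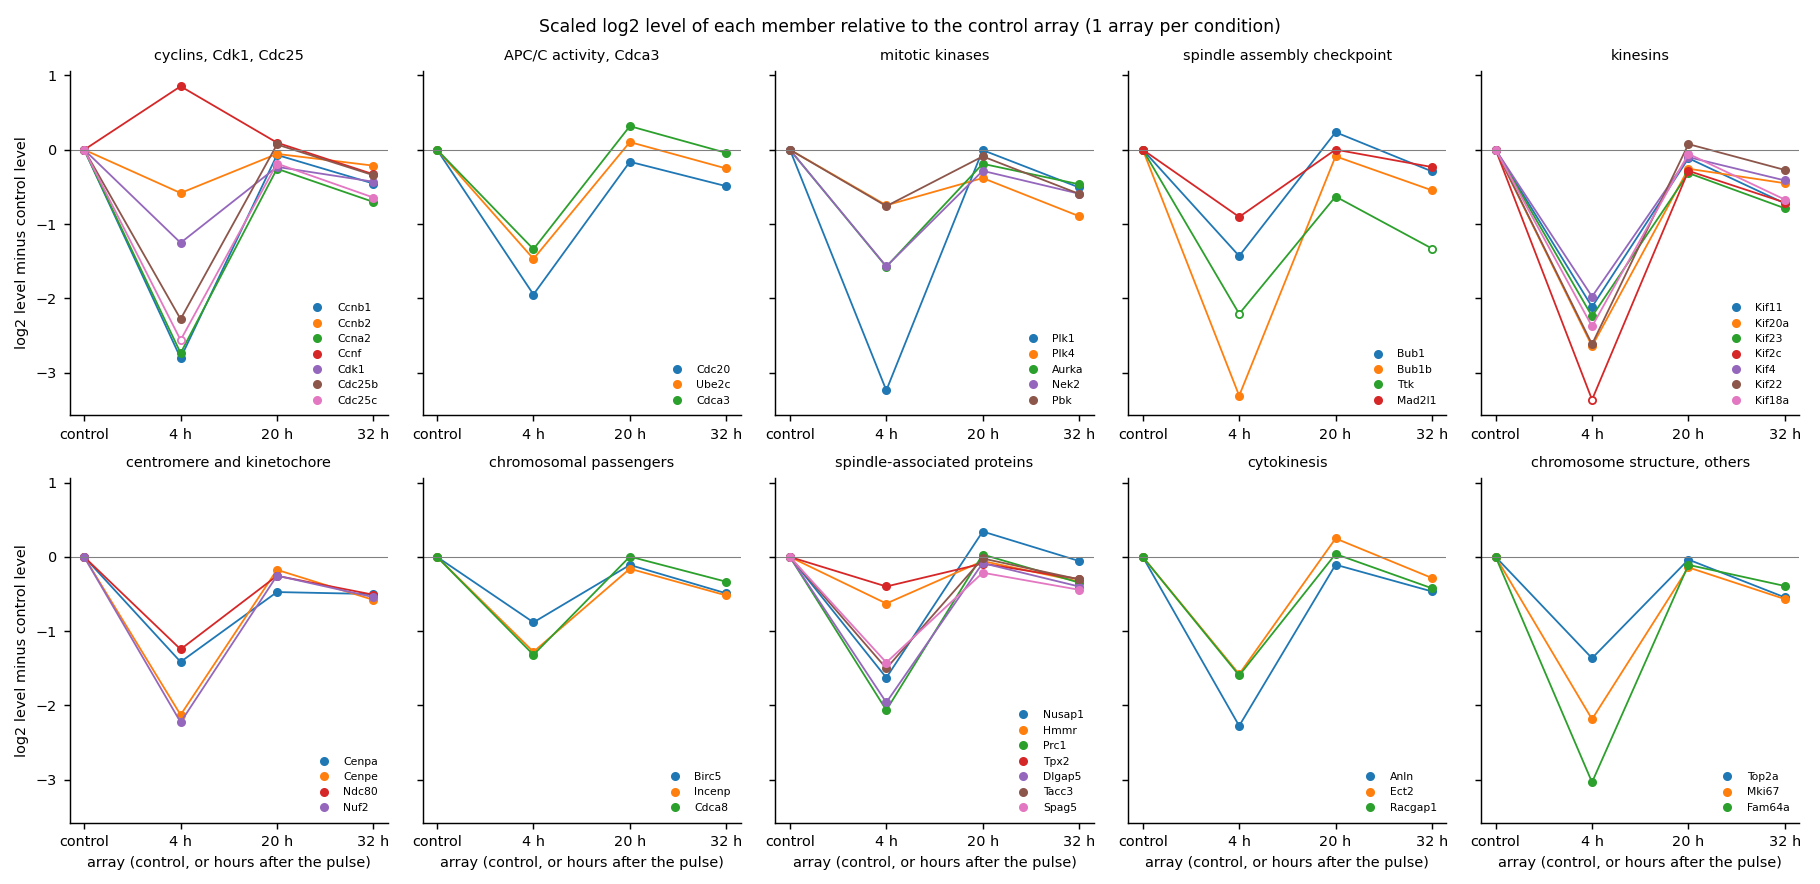
Log2 level of each gene minus its level in the control, on the control array and the arrays 4 h, 20 h and 32 h after the pulse, in 10 panels by role, with 1 array per point. Filled points were well above background and open points were not. Nearly all lines dip at 4 h, reach about 0 at 20 h and lie slightly below 0 at 32 h, and *Ccnf* alone peaks at 4 h. *Aurkb* and *Cenpf* are left out.

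From 20 h to 32 h every gene with a ratio moved the same way by a small amount, as read by its brightest probe. All 46 were lower at 32 h than at 20 h, where 52.2% of gene names were lower, and 41 were lower by more than the spot error, where 7.93% of gene names were. A 2-fold change was shown for 0 of 46, *Ttk* again by a bound only, and over the array by 0.947% of gene names downward and 2.11% upward. The median ratio was -0.36, 1.28-fold lower, and the measured ratios ran from -0.62 to -0.03. *Kif18a* was lowest with -0.62 ± 0.22, followed by *Kif11* with -0.61, *Bub1* and *Ect2* with -0.53, and *Plk4*, *Top2a*, *Plk1* and *Pbk* between -0.51 and -0.50. At the other end stood *Cenpa* with -0.03 and *Ccnb2* with -0.16, both within the spot error. All the genes with a ratio were lower at 32 h under each of the 6 other scalings as well. A dimmer probe of *Mad2l1* was higher at 32 h than at 20 h by 0.14, within its spot error of 0.22. A dimmer probe of *Nuf2*, above background at 32 h only, was higher at least 1.98-fold. The other dimmer probes with a ratio were lower at 32 h. The 32 h array was 12 h later than the 20 h array, and 1 array per time does not show the course between them.

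Set against the control, the 32 h array was lower for all 46 genes, against 8550 of 16894 gene names. The median was -0.46 or 1.38-fold lower, and 43 genes were lower by more than the spot error, against 22.5% of gene names. A 2-fold change was shown for 0 of 46 (*Ttk* by a bound only), while 2.77% of gene names fell and 2.24% rose. Of the measured ratios *Plk4* lay furthest below, with -0.89, then *Kif23* with -0.79, *Kif11* with -0.72, and *Kif2c* and *Ccna2* with -0.71 and -0.70. *Cdca3*, at -0.04, and *Nusap1*, at -0.05, lay nearest to the control. Both lay above it with the spike-in scaling and without scaling. With the spike-in controls less 1 probe, an alternative chosen after seeing the data, all 46 genes lay below the control. *Ccnf*, the gene that was high at 4 h, was at -0.33, at the upper quartile of the group. By role, the kinesins had the lowest median at 32 h over control, -0.67, and the APC/C-linked genes the highest, -0.25. Across the 43 genes measured in both, the ratio of 4 h over control and that of 32 h over 20 h, which share no array, had a Spearman's rho of 0.28 and a Pearson's r of 0.21. The genes of deepest fall at 4 h were thus only loosely those of largest difference later.

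**Figure D4:**
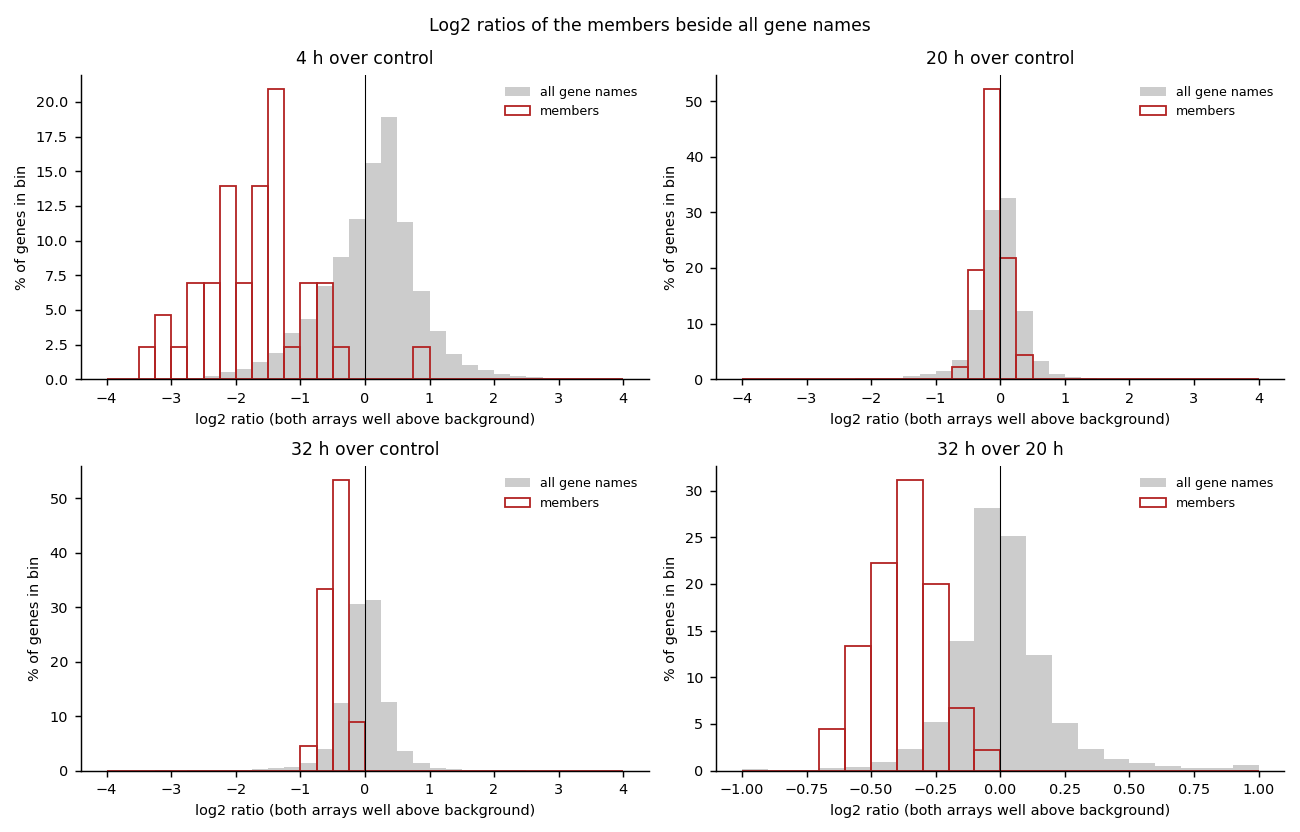
Percentage of genes by log2 ratio for the group (red outlines) and for all gene names on the array (grey), over genes well above background on both arrays, with values beyond the axis in the end bins. The group lies to the left of all gene names at 4 h over control, over them at 20 h over control, and to the left by less than 2-fold at 32 h over control and 32 h over 20 h.

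Other genes of the same pathways gave a context for the group. They were lists of known function, and their counts are descriptions. Of 48 other mitotic genes, 27 fell at 4 h and 0 rose, with a median of -1.07, and the lowest were *Ckap2l*, a spindle protein, at -2.85, the mitotic kinase *Melk* at -2.44 and *Aspm*, a spindle pole protein, at -2.36. Of 51 genes of DNA replication and G1/S with a ratio, 27 fell, with a median of -1.02. Those lowest were *Gmnn* (geminin, the licensing inhibitor) at -2.05, the thymidine kinase *Tk1* at -1.97 and the clamp loader subunit *Rfc2* at -1.96. At 4 h the group's median thus lay below that of the replication genes, and at 32 h over 20 h the medians were -0.36 for the group, -0.32 for other mitotic genes and -0.18 for replication genes.

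Condensin, cohesin and separase genes, which shape and hold sister chromatids, had 7 of 22 that fell and 1 that rose. The shugoshins *Sgol2* and *Sgol1*, protectors of centromeric cohesion, were lowest with -2.06 and -2.01, with sororin (*Cdca5*) at -1.91. *Wapal*, which releases cohesin, rose by 1.53. Regulators of G2/M transcription had a median of 0.02, and 5 of 18 fell. These 5 were *Rbl1* (p107) at -2.28, the repressors *E2f8* and *E2f7* at -2.16 and -1.73, and, named after their values were seen, *Foxm1*, the activator of late cell cycle genes, at -1.37 and *Rbl2* (p130) at -1.15. The core MuvB subunits *Lin9*, *Lin37*, *Lin52* and *Lin54*, also named after their values were seen, lay between -0.44 and 0.56.

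The brakes of the G2/M transition moved in both directions at 4 h. Of 14 with a ratio, 4 rose and 3 fell. *Cdkn1a* (p21), the Cdk inhibitor, had 0.40 in the control, 3.97 at 4 h, 1.70 at 20 h and 1.72 at 32 h, a rise of 3.57 on the log2 scale at 4 h, and at 20 h and 32 h it was 1.30 and 1.32 above the control. *Ccng1* rose by 1.90 and *Gadd45a* by 1.84, both known targets of p53. *Wee1*, the kinase that inhibits *Cdk1*, fell with -1.36 and the damage kinase *Atm* with -1.27. *Chek2*, a checkpoint kinase named after its values were seen, was 2.63-fold lower by its own dim signal at 4 h. *Cdkn1a* and the mitotic group thus stood apart from the control in opposite directions at 4 h, and at 20 h only *Cdkn1a* was still past 2-fold.

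**Figure D5:**
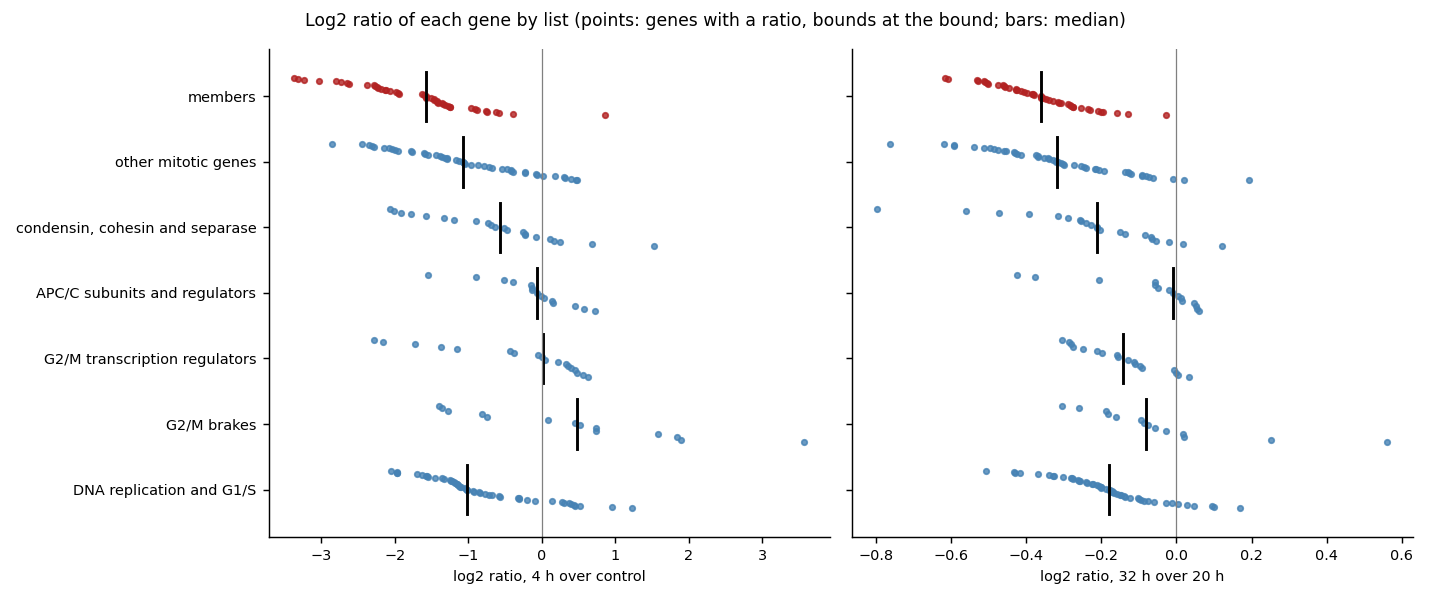
Log2 ratio of each gene at 4 h over control (left) and at 32 h over 20 h (right) for the 48 mitotic genes (top row) and 6 other lists, with points for genes with a ratio, drawn at the bound where only a bound was had, and black bars for medians. The group has the lowest median on both sides, -1.58 and -0.36.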

How the data were processed

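RNA of NIH-3T3:Per2-Luc fibroblasts was hybridized to 4 one-color Agilent mouse arrays on 1 slide, 1 per group, grouped by the labels. The authors deposited the intensity of each spot from Agilent Feature Extraction 10.7.3.1, with background already subtracted, and a second table in which these intensities were divided by a constant, 1 for each array. That table was linear and not centered, its columns had medians of 0.0590, 0.0757, 0.0546 and 0.0587 for the control, 4 h, 20 h and 32 h, and nothing about its scale stayed unknown, since it differed from the divided intensities by at most 0.000122%. Probe positions are those of mm9 per the file headers.

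From the deposited intensities, log2 signals were averaged over the spots of a probe without an outlier flag (125 to 161 flagged per array, 0 saturated), and scaled by subtracting the array's 75th percentile. A probe was called well above background when the scanner flag held for at least 50% of its spots. A bound was taken against the higher of the dim probe's own signal and the lowest level among probes above background on that array, and a fold threshold of 2 was used. Where the dim probe's own signal was the higher, the value is the ratio to that signal and no strict limit. The number of arrays limits the precision, and the spot error covers the scan only. The group's genes and the 8 other lists were chosen with earlier results of these data known. Every gene of the group was named, with the level on every array for 9 set genes and for the lowest and highest of each role at 4 h over control and at 32 h over 20 h, and of the other lists the 3 genes furthest each way past 2-fold. A result of 1 of these lists that needs an item withheld for evaluation is not reported here.

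SAM, which the study names for pairs of arrays, was not run, since there is 1 array per group. Alternatives were other scalings (array median, quantile, probes above background on all 4 arrays, 8 spike-in probes, none), normexp background correction with an offset of 50 in limma 3.58.1 (R 4.3.3), other detection rules, flagged spots kept, the median over probes, the second deposited table, thresholds of 1.5-fold and 3-fold, and, chosen after seeing the data, spike-in scaling without 1 probe. Tested on simulated data for 4 h over control, the steps recovered 200 of 200 probes changed 4-fold among 39428, and called 0 others. The planted change was larger than the 2-fold threshold, so this checks the steps and not calls near that threshold. Promoter windows came from RefSeq (GRCm38.p6), matched by symbol, or by synonym where the symbol was no RefSeq symbol. Python 3.11.15, numpy 2.4.6 and pandas 2.3.3 were used.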

Additional observations from a re-analysis of the deposited data

Results flagged for a closer look

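5 genes lay on opposite sides of the control at 4 h and at a later hour, by more than the spot error both times, and the difference between the hours was not tested. *Ccnf* was above the control at 4 h, with a log2 ratio of 0.85, and below it at 32 h, with -0.33. *Cdca3* was at -1.34 at 4 h and 0.32 at 20 h, *Bub1* at -1.43 and 0.24, *Nusap1* at -1.63 and 0.34, and *Ect2* at -1.58 and 0.25.

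A further probe of *Nuf2*, dimmer than the one used for this gene, was well above background at 32 h only. Its signal there exceeded that of the control at least 1.55-fold, while the brightest probe of *Nuf2* gave -0.54 on the log2 scale at 32 h over control.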

How the results depend on the processing

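The fall at 4 h and the lower level at 32 h than at 20 h kept their direction in the group's median under every alternative run. The group's median at 4 h over control, -1.58, was -1.94 with scaling by the array median, -1.98 with the spike-in controls, -1.97 with these without 1 probe (an alternative chosen after seeing the data) and -1.86 with no scaling, and -1.40 with normexp. At 20 h over 4 h, 1.66 became 2.12, 2.26, 2.13 and 2.27 under these 4 scalings and 1.36 with normexp. At 20 h over control, -0.09 became 0.11 with the spike-in controls, -0.01 with these without 1 probe and 0.24 with no scaling. The shift is 1 constant per array in each of these scalings, so that it moves all genes alike. Normexp moved the 4 h ratio of 9 of 46 genes by over 1.5 times, and *Cdc25c* and *Dlgap5* no longer passed 2-fold. At 4 h over control 22 genes fell at a threshold of 3-fold, and 1 rose at 1.5-fold. At 1.5-fold, 1 gene was lower at 20 h over control, 10 at 32 h over control, 1 at 20 h over 4 h and 2 at 32 h over 20 h. With no detection filter, and with the flag for positive and significant signals, 2 genes were lower at 32 h over control and 1 at 32 h over 20 h. The shares of all gene names at these other thresholds and detection rules were not computed, so these counts have no background to be read against. Of all values recomputed for the group, 194 stayed within the spot error or 1.5 times the count and 21 did not. Of those for single genes 387 stayed, 208 moved by more than the spot error and 0 changed sign past it. No paired analysis was possible because each group had 1 array. Leaving out an array was not possible for the same reason, and signals near background limit what is said of *Aurkb*, *Cenpf*, *Ttk* and *Cdc25c*.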
